A study of Mus musculus with 10 samples.

Results

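The bone morphogenetic proteins (BMPs) and activins are secreted growth factors, and the genes described here are 6 of their ligand genes (Bmp2, Bmp4, Bmp5, Bmp7, Inhba and Inhbb) and 4 genes of secreted antagonists or related proteins (Fst, Fstl1, Grem1 and Nog). They were chosen by name, and every probe set assigned to 1 of these genes and to no other was read, which gave 10 of the 18193 genes with such probe sets, and 18 of the 45037 non-control probe sets on the array. A probe set is a group of short oligonucleotides that reads a transcript, and its level is given as a log2 signal, on which a difference of 1 is a doubling. The samples were taken from mouse embryos at 15 dpc (days post coitum), from gallbladder or cystic duct, in 5 groups of 2 biological replicates. Sox17+/- gallbladder came from ICR, an outbred stock, as replicates 1 and 2, and from B6, the C57BL/6 inbred strain, as replicates 3 and 4. Wild type cystic duct came from ICR as replicates 1 and 2, as did wild type gallbladder, and wild type gallbladder of B6 made up replicates 3 and 4. Sox17 is a gene for an endodermal transcription factor, and Sox17+/- embryos carry 1 altered copy, whose design is not given in the sources used here. Nothing in the labels says how many embryos went into a sample or that a batch was shared, so p-values measure the spread between these samples, and precision is limited by how few arrays there are.

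BMPs and activins bind pairs of type I and type II receptor kinases. The kinases then phosphorylate Smad proteins: BMP receptors act mainly through Smad1, Smad5 and Smad9, and activin receptors through Smad2 and Smad3. Gremlin (Grem1) and Noggin (Nog) bind BMPs outside the cell, and follistatin (Fst) binds activins most tightly and some BMPs as well. In the developing gut, Hedgehog ligands made by the epithelium act on the mesenchyme beneath it, where Bmp4 is a known responsive gene. The gallbladder wall has the same layout, with an epithelium surrounded by mesenchyme and smooth muscle.

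Of the 18 probe sets, 14 of 9 genes reached the minimum mean signal of 4.47 and were tested. The only Nog probe set and 1 each of Bmp5, Bmp7 and Inhba lay below it. All differences were estimated in limma over 31526 probe sets, with p-values adjusted by Benjamini-Hochberg over all of them and a threshold of 0.05.

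Sox17 itself was lower in Sox17+/- gallbladder on both of its probe sets, with differences of -1.40 ± 0.11 and -1.53 ± 0.12 log2 units averaged over the strains (SE, adjusted p = 0.00927 and 0.00944 in limma). Shh, the Hedgehog ligand of this epithelium, fell by 3.09 ± 0.10 (adjusted p = 0.000193). The epithelial marker Epcam read 11.10 to 12.12 and the smooth muscle actin Acta2 read 11.95 to 14.13 over the 10 samples on their brightest probe sets, so both layers were represented in every sample. In each of the 4 gallbladder groups the replicate pair had an r of 0.967 to 0.995, with median differences of 0.111 to 0.205 log2 units. The cystic duct pair stood apart, at r = 0.900 and a median difference of 0.569, and 8172 of 31526 probe sets differed by more than 1 log2 unit between these replicates.

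**Figure D1:**
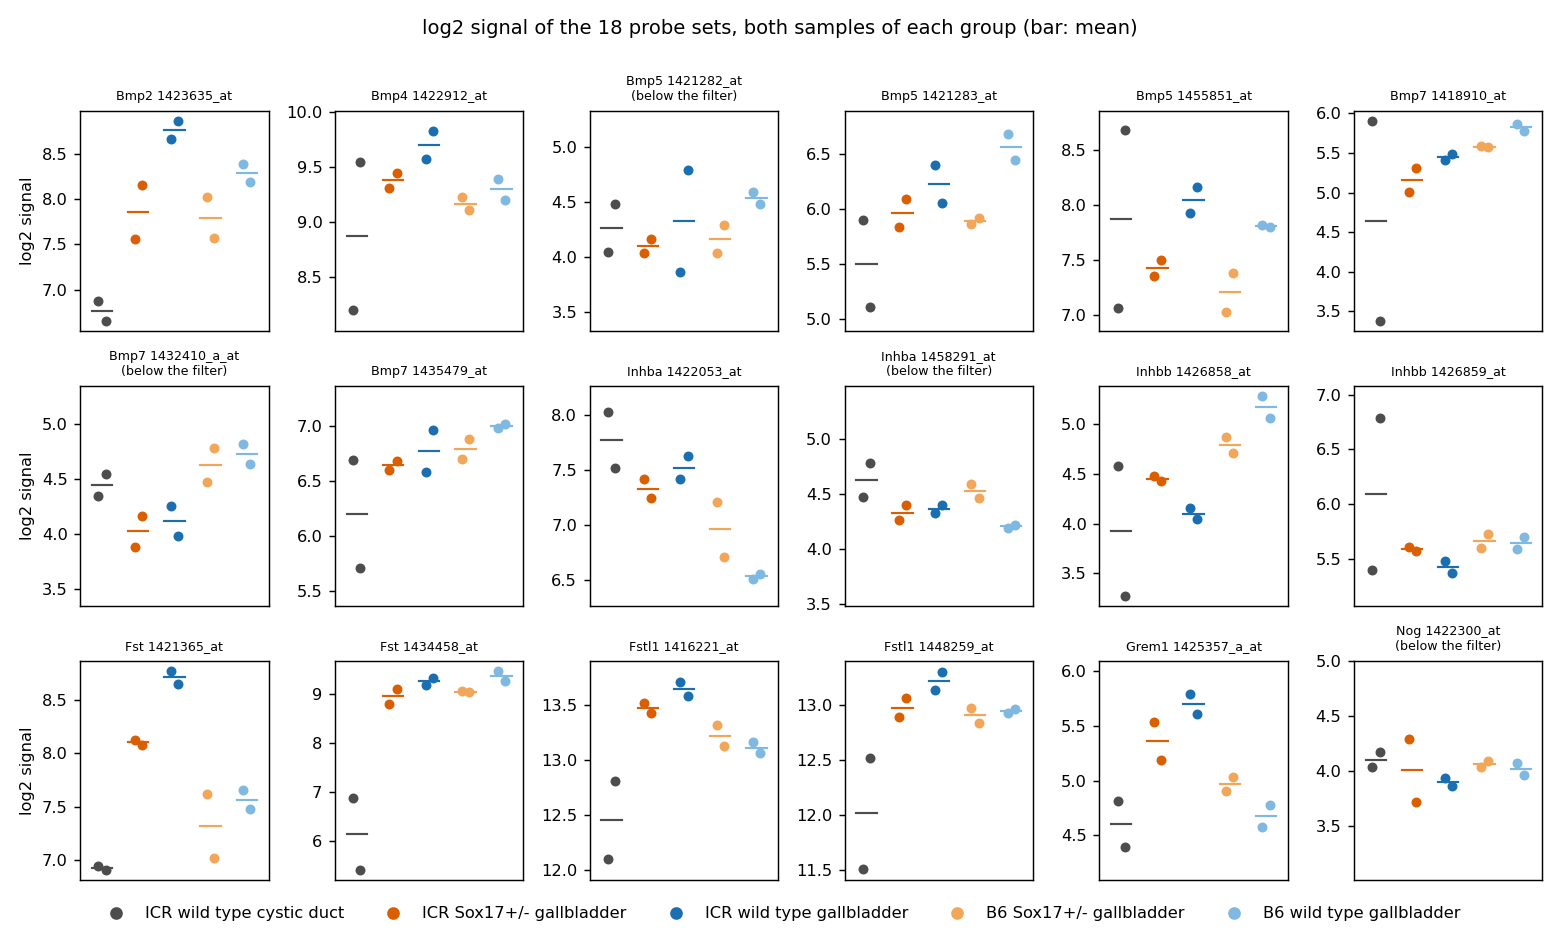
Log2 signal (vertical axes, which do not start at 0) of all 18 probe sets in each of the 10 samples, with a point per sample, a bar for the group mean and a colour per group, and with the 4 untested probe sets marked as below the filter. Bmp2 and both Fst probe sets are lowest in cystic duct, whose replicates also lie far apart on several panels.

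In cystic duct the antagonists Fst, Fstl1 and Grem1 and the ligand Bmp2 were lower than in gallbladder, both from wild type ICR embryos. Over the whole array, 8.75% of probe sets passed the test in this comparison and 5.54% did so in the lower direction. Of the 14 tested probe sets, 6 were lower and 0 were higher, a share of 42.9%. Of all 2759 calls 1014 were higher in duct, against 362 of 2668 with values as deposited and 508 of 1940 after median centring. The median difference of the 14 was -0.82 log2 units, against -0.05 over all probe sets, and 12 of the 14 were below 0. The groups did not overlap, with cystic duct lower, for 8 of the 14 (57.1%), against 27.6% of all probe sets. In whole tissue, fewer cells of a type and less RNA per cell cannot be told apart.

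Among the ligands, Bmp2, which acts on smooth muscle and epithelia through the BMP type I receptors, read 6.88 and 6.66 in cystic duct, against 8.67 and 8.87 in ICR wild type gallbladder. Both duct samples lay below every gallbladder sample of the series. The difference was -2.00 ± 0.26 log2 units (SE, adjusted p = 0.00545 in limma), a 4.00-fold lower signal. Bmp4 read 8.20 and 9.54 in cystic duct, against 9.57 and 9.82 in gallbladder. The second duct sample was close to the gallbladder level after quantile normalization, and the difference of -0.83 did not pass (adjusted p = 0.191, 95% interval -1.67 to 0.02). With values as deposited Bmp4 read 8.33 and 9.03 in duct, against 9.81 and 9.91, so there both duct samples were well below gallbladder. After quantile normalization the probe sets of Bmp5, a BMP of mesenchyme, disagreed. Probe set 1421283_at read 5.90 and 5.11 in duct, against 6.40 and 6.05 in gallbladder, whereas 1455851_at read 7.06 and 8.68 in duct, against 7.93 and 8.16. On 1455851_at the gallbladder values lay between those of the duct samples, and neither probe set passed. With values as deposited both duct samples were below gallbladder on 1455851_at. Duct replicate 2 was so only narrowly, at 8.17, against 8.20 and 8.19. On 1421283_at the deposited groups overlapped, with duct replicate 1 at 6.01 and gallbladder replicate 2 at 5.99. For Bmp7, 1435479_at read 6.69 and 5.72 in duct, against 6.58 and 6.97 in gallbladder, and 1418910_at read 5.91 and 3.38, against 5.42 and 5.49. The second duct replicate carried the lower mean of both Bmp7 probe sets, and neither passed (adjusted p = 0.281 and 0.438).

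Neither activin subunit gene passed the test. Inhba, which encodes the beta A subunit of activin, read 8.02 and 7.52 in duct, against 7.42 and 7.62 in gallbladder, so the groups overlapped (difference 0.25, adjusted p = 0.543). Inhbb, which encodes the beta B subunit, differed by -0.17 on 1426858_at and by 0.67 on 1426859_at, and neither passed. On 1426859_at the duct values were 5.40 and 6.79, against 5.48 and 5.37, so 1 duct sample set the mean.

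The largest differences among the antagonists were those of Fst. Probe set 1434458_at read 6.89 and 5.41 in cystic duct, against 9.19 and 9.33 in gallbladder, and 1421365_at read 6.94 and 6.91, against 8.77 and 8.65. Both duct samples were below all 8 gallbladder samples on each probe set. The differences were -3.11 ± 0.40 (8.61-fold lower, adjusted p = 0.00575) and -1.79 ± 0.22 (3.45-fold lower, adjusted p = 0.00502). The first is the less steady of the pair: it was -2.37 without duct replicate 2 and -3.85 without duct replicate 1. Fstl1, a secreted glycoprotein with a follistatin-like domain, read 12.09 and 12.81 in duct, against 13.71 and 13.58 in gallbladder on 1416221_at, and 11.51 and 12.52, against 13.14 and 13.30, on 1448259_at. Again no duct sample reached a gallbladder sample, and both probe sets passed, at -1.19 ± 0.21 (adjusted p = 0.0144) and -1.20 ± 0.27 (adjusted p = 0.0345). Without duct replicate 1 the second value was -0.70. Grem1 read 4.81 and 4.40 in duct, against 5.79 and 5.61 in gallbladder, a difference of -1.09 ± 0.23 (adjusted p = 0.0262), and its duct signal is close to the minimum for testing.

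**Figure D2:**
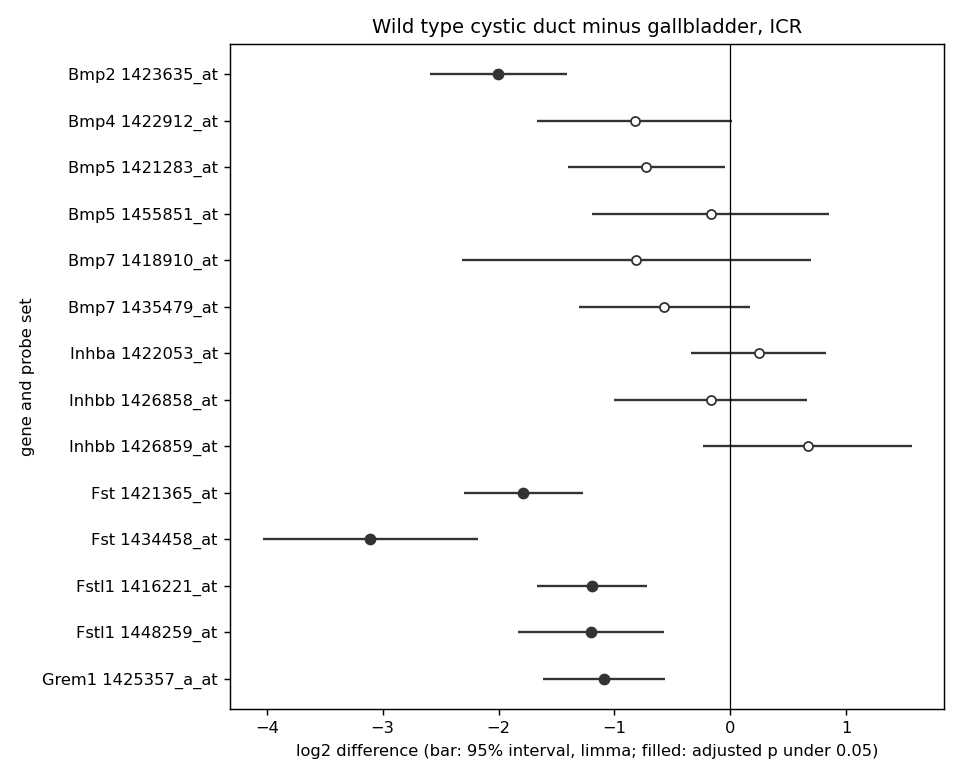
Log2 difference between ICR wild type cystic duct and gallbladder (duct minus gallbladder, horizontal axis) with 95% intervals for the 14 tested probe sets, filled where the adjusted p was under 0.05. The 6 filled points, of Bmp2, Fst, Fstl1 and Grem1, lie between -3.11 and -1.09.

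The calls depended on the fit. With arrays weighted by their quality, or with only the 4 ICR wild type samples in the fit, 0 of the 14 passed in limma, as did 0 of all 31526 probe sets, with 6 of the 14 at an unadjusted p under 0.05 in each. In the fit of all samples 7 of the 14 had an unadjusted p under 0.05, against 27.2% of all probe sets. On leaving out any 1 sample, Bmp2 stayed between -2.11 and -1.89, Fst 1421365_at between -1.85 and -1.72 and Fst 1434458_at between -3.85 and -2.37. Other probe sets moved both ways. Without duct replicate 1, Bmp5 1455851_at was 0.64 and Inhbb 1426859_at 1.36, while Bmp7 1418910_at was -2.07. The Fstl1 call on 1448259_at was lost on leaving out any 1 gallbladder sample, and that of Grem1 on leaving out any 1 wild type or B6 Sox17+/- gallbladder sample.

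Other tissue markers moved with the duct samples. Smooth muscle markers (10 of 10 genes above the minimum) averaged 7.93 and 8.66 in duct, against 9.80 and 9.84 in ICR wild type gallbladder. Hepatocyte markers (11 of 11 measured genes) averaged 13.43 and 13.04 in duct, against 10.43 and 10.07. Erythroid markers (7 of 8 measured genes above the minimum) averaged 10.57 and 9.35 in duct, against 8.21 and 7.16. General mesenchyme markers (11 of 11 genes) averaged 11.08 and 11.71 in duct, against 11.47 and 11.86. Of their 23 probe sets 8 passed as lower and 0 as higher, with a median of -0.54. Biliary epithelium markers (10 of 10 measured genes) averaged 9.78 and 9.60, against 9.49 and 9.63. ICR wild type gallbladder replicate 1 read 10.95 for Lum, 7.55 for Pdgfra and 8.20 for Krt8 on their brightest probe sets. Replicate 2 read 13.27, 9.96 and 10.77, so the replicate 1 values lower the first gallbladder averages of both lists. The part of these tissues in the lower Bmp2, Fst, Fstl1 and Grem1 signals was not tested.

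The start regions of the antagonists Fstl1 and Grem1, which were lower together in duct, and of the Hedgehog-responsive ligand Bmp4 are given for a comparison of base composition. They are the 250 bases before the RefSeq gene start in GRCm38.p6, read 5′ to 3′ on the strand of the gene, and capitals mark the 1 motif match found.
Bmp4, chr14:46390670-46390919, minus strand: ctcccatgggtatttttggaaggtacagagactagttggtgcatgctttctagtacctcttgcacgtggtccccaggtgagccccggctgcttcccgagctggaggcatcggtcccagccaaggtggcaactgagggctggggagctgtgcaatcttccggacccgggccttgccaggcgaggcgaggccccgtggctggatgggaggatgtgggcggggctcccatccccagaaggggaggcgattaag
Fstl1, chr16:37776805-37777054, plus strand: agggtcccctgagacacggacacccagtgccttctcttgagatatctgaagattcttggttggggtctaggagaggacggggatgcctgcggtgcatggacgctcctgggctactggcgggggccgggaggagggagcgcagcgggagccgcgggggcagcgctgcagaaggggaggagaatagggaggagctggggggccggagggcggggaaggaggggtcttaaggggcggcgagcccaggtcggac
Grem1, chr2:113758649-113758898, minus strand: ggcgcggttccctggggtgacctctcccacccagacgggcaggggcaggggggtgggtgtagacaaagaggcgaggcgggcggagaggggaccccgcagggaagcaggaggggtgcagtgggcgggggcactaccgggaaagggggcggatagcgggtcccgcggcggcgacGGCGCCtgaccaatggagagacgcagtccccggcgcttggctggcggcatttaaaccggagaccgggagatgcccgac
The G and C share was 63.2% for Bmp4, 68.0% for Fstl1, 72.0% for Grem1, 68.0% for Inhbb, 42.8% for Bmp5 and 43.2% for Inhba, against a median of 52.4% over 32851 promoters. RefSeq start regions were matched for 6 of the 10 genes (Bmp4, Bmp5, Inhba, Inhbb, Fstl1 and Grem1). The Inhba window, chr13:16011601-16011850, lies inside the gene, which starts at 16004256, so it is not the region before that start. On both strands the 6 windows were searched for GACCACCCA, a motif of the GLI factors of the Hedgehog pathway held by 0.225% of all promoters of this length. They were also searched for AACAAT, a SOX motif held by 9.42%, and for GGCGCC, a GC-rich Smad motif held by 9.59%. The only match in the 6 was GGCGCC in Grem1, 78 bases before the gene start. A match describes letters and is not evidence of binding, and the other windows simply lack these letters.

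The rest of the pathway was read from lists of other ligands, other antagonists, receptors, transducers and target genes. In cystic duct, 6 of 36 receptor probe sets were lower and 0 higher, with a median of -0.44. Those lower were 2 of Bmpr1a, the BMP type I receptor, at -1.12 and -0.79, Tgfbr2 at -1.05, Tgfbr3 at -0.73, the BMP type II receptor Bmpr2 at -0.57 and the BMP coreceptor Rgmb at -1.06. Of 17 target probe sets, 4 were lower and 0 higher, with a median of -0.49: 2 of Id2 (-1.22 and -1.17) and 2 of Id4 (-1.64 and -2.32), genes of the Id family that BMP signalling induces in many cells. The other antagonists went both ways, with 4 of 20 probe sets lower and 1 higher and a median of -0.06. Bmper and Crim1, which bind BMPs, differed by -1.66 each, Twsg1 differed by -0.82 and the decoy receptor Bambi by -0.62, whereas Chrdl1, a chordin-like BMP inhibitor, was 1.09 higher. Among 22 probe sets of other ligands, 2 of Tgfb2 were lower (-1.11 and -1.08), Inhbc, an activin subunit gene of the liver, was 1.79 higher and Gdf3 was 1.17 higher. Smad1, at -0.95, was the only one of 28 transducer probe sets to pass.

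**Figure D3:**
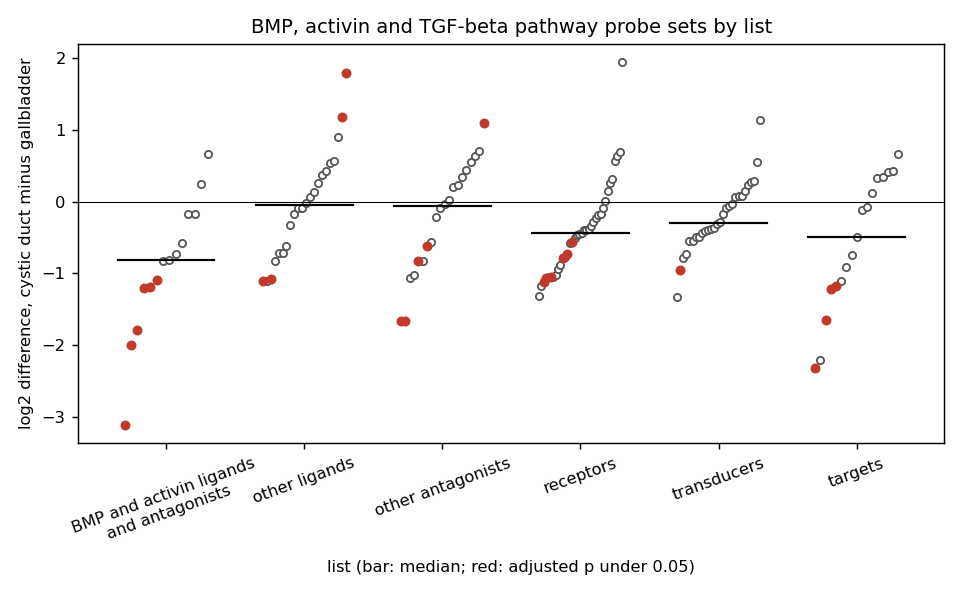
Log2 difference between ICR wild type cystic duct and gallbladder (duct minus gallbladder, vertical axis) for every tested probe set of the 9 measured genes and of the 5 other pathway lists (horizontal axis), in red where the adjusted p was under 0.05, with a bar for the list median. The BMP and activin genes, receptors, transducers and targets have red points on the lower side only, while other antagonists and other ligands have them on both sides.

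In Sox17+/- gallbladder none of the members passed the test against wild type. Over both strains 0 of the 14 probe sets was called, as were 0.114% of all probe sets, which is 36 of 31526. Of the 14 differences 12 were below 0, with a median of -0.20 against -0.01 over all probe sets. At an unadjusted p under 0.05 there were 7 of the 14 (50%), all lower, against 9.15% of all probe sets in either direction and 5.66% in the lower one. This number was 3 without B6 wild type replicate 3, 5 to 9 without any other 1 sample and 2 with all 10 samples in the fit. For 4 of the 14 (28.6%) every Sox17+/- sample was below every wild type sample of its strain in both strains (Bmp2, Bmp5 1455851_at, Bmp7 1418910_at and Fst 1434458_at), against 5.75% of all probe sets. The total of 36 is itself unsteady: it was 1145 without gallbladder replicate 2 and 65 without replicate 1 of ICR wild type, and 2 to 21 without any 1 B6 sample, with 0 members called in each.

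Bmp5 came closest to the threshold. On 1455851_at it read 7.36 and 7.50 in ICR Sox17+/- gallbladder, against 7.93 and 8.16 in ICR wild type. In B6 the values were 7.03 and 7.38 in Sox17+/-, against 7.82 and 7.80 in wild type. All 4 Sox17+/- samples were below all 4 wild type samples, and the difference was -0.61 ± 0.11 (SE, 1.52-fold lower, adjusted p = 0.155 in limma). It was -0.61 in ICR and -0.60 in B6. The second probe set, 1421283_at, gave -0.47 ± 0.12 (adjusted p = 0.346), with Sox17+/- values of 5.84 and 6.09 in ICR, against 6.40 and 6.05 in wild type, and 5.86 and 5.92 in B6, against 6.68 and 6.45.

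Bmp2 gave the largest difference of the members. It read 7.56 and 8.16 in ICR Sox17+/-, against 8.67 and 8.87 in ICR wild type, and 8.03 and 7.57 in B6 Sox17+/-, against 8.39 and 8.19 in B6 wild type. Every Sox17+/- sample was again below every wild type sample. The difference was -0.70 ± 0.17 (95% interval -1.09 to -0.31, adjusted p = 0.273), with -0.91 in ICR and -0.49 in B6, and the test of the strain difference gave 0.42 (adjusted p = 0.821). Bmp4 read 9.31 and 9.44 in ICR Sox17+/-, against 9.57 and 9.82 in wild type, and 9.22 and 9.10 in B6 Sox17+/-, against 9.39 and 9.20. The ICR groups were separate and the B6 groups overlapped. Its difference of -0.23 ± 0.09 had an interval from -0.44 to -0.01 (adjusted p = 0.524), while Shh fell by 3.09 in the same samples. Bmp7, a BMP of epithelia, differed by -0.27 on 1418910_at and by -0.17 on 1435479_at (adjusted p = 0.503 and 0.694).

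Of the antagonists, Fst read 8.81 and 9.10 in ICR Sox17+/-, against 9.19 and 9.33 in wild type, and 9.07 and 9.04 in B6 Sox17+/-, against 9.48 and 9.27, on 1434458_at. All Sox17+/- values were below the wild type values of the same strain (-0.31 ± 0.10, adjusted p = 0.423). On 1421365_at the values were 8.13 and 8.08 in ICR Sox17+/-, against 8.77 and 8.65, but 7.62 and 7.03 in B6 Sox17+/-, against 7.66 and 7.48, so only the ICR groups were separate (-0.43 ± 0.14, adjusted p = 0.436). Fstl1 differed by -0.03 and -0.14 on its probe sets, with 95% intervals of -0.19 to 0.12 and -0.30 to 0.02. The Grem1 difference was -0.02 (95% interval -0.30 to 0.26).

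For activin subunits the averages over the strains were 0.12 for Inhba and -0.02 and 0.09 for the Inhbb probe sets, none of which passed. In ICR alone 0 of 14 probe sets passed, against 0.0381% of all, and in B6 alone 0 of 14, against 0.00952%. With the replicate number as a block the totals of 12 probe sets in ICR and 3 in B6 were 1 each, with no member called. The test of whether the genotype effect differed between strains called no probe set at all (0%, with 1850 or 5.87% at an unadjusted p under 0.05). Of the 14, 2, Inhbb 1426858_at and Grem1, had an unadjusted p under 0.05. Genotype groups that were separate in both strains but in opposite directions were seen for 3 of the 14 (21.4%), these 2 and Inhba, against 6.38% of all probe sets. Inhbb 1426858_at passed the minimum of 4.47 only through its B6 samples.

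**Figure D4:**
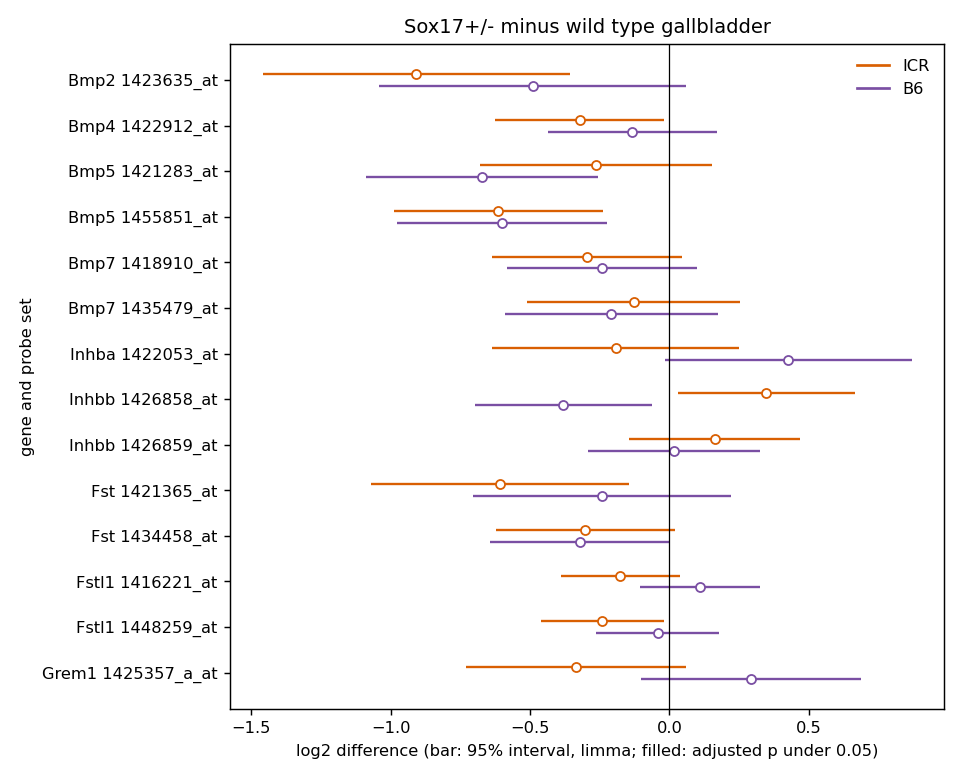
Log2 difference of Sox17+/- minus wild type gallbladder (horizontal axis) with 95% intervals in ICR and in B6 for the 14 tested probe sets. All points are open, since no adjusted p was under 0.05, and Inhba, Inhbb 1426858_at, Fstl1 1416221_at and Grem1 lie on opposite sides of 0 in the strains.

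In the other pathway lists 0 probe sets were called in Sox17+/- gallbladder over both strains, and those with the lowest p are named here. Chrdl1 was higher on all 3 of its tested probe sets, at 0.72, 0.97 and 0.96 (adjusted p = 0.253, 0.209 and 0.117). On 1456722_at it read 5.87 and 6.39 in ICR Sox17+/-, against 5.08 and 5.49 in ICR wild type, and 7.12 and 6.82 in B6 Sox17+/-, against 5.98 and 5.78 in B6 wild type. Bmper, a secreted BMP regulator, read 8.02 and 8.08 in ICR Sox17+/-, against 8.42 and 8.75, and 8.32 and 8.28 in B6 Sox17+/-, against 8.87 and 8.90, a difference of -0.56 (adjusted p = 0.117). Neither gene passed the threshold, although both separated the genotypes in each strain. Among targets the lowest p belonged to Hey1 (-0.45, adjusted p = 0.215) and Id2 (-0.29), among transducers to Smad1 (-0.20) and Smad7 1423389_at (0.57), among receptors to Acvr1 (-0.13) and Acvr2b (-0.23), and among other ligands to Tgfb2 (-0.22) and Gdf3 (-0.23). On the Smad7 probe set ICR wild type replicate 1 stood apart, at 6.14, from the other 3 wild type samples, at 7.81 to 7.94. Medians of the lists lay between -0.07 for receptors and 0.04 for other antagonists. Smooth muscle markers averaged 9.75 and 9.77 in ICR Sox17+/-, against 9.80 and 9.84, and 9.71 and 9.58 in B6 Sox17+/-, against 9.96 and 9.73. None of their 16 probe sets passed over both strains, and 11 were below 0 and 5 above, with a median of -0.26. Actg2, a gene of this list, read 8.85 in ICR wild type replicate 1, against 10.79 in replicate 2, which lowers the first wild type average. Biliary epithelium markers averaged 9.91 and 10.20 in ICR Sox17+/-, against 9.49 and 9.63, and 10.25 and 10.19 in B6 Sox17+/-, against 10.12 and 9.86. Of their 18 probe sets 12 were above 0 and 6 below, with a median of 0.39, and 2 passed as higher over both strains. Tspan8 on its brightest probe set read 10.2 to 10.6 in Sox17+/- samples, against 8.4 to 9.2 in wild type. Cldn7, of the same list, was lower, at 9.13 to 9.26, against 9.31 to 9.82. Krt8 on its brightest probe set read 8.20 in ICR wild type replicate 1, against 10.77 in replicate 2, which lowers the first wild type average. Hepatocyte markers averaged 11.84 and 11.23 in ICR Sox17+/-, against 10.43 and 10.07, and 11.46 and 11.45 in B6 Sox17+/-, against 11.58 and 10.99. None of their 25 probe sets passed, and 23 were above 0, with a median of 0.54. Erythroid markers averaged 8.70 and 8.07 in ICR Sox17+/-, against 8.21 and 7.16, and 8.68 and 9.40 in B6 Sox17+/-, against 8.31 and 8.47. All 12 of their probe sets were above 0 and none passed, with a median of 0.57. Skeletal muscle markers averaged 8.0 in B6 Sox17+/- replicate 3 and 4.92 to 5.65 in the other 9 samples, and the part of any of these tissues in the members' values was not tested.

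Between the strains, 6 of the 14 probe sets differed in gallbladder, averaged over both genotypes (42.9%, against 16.2% of all probe sets). This count includes Inhbb 1426858_at, which passed the minimum of 4.47 only through B6, the strain in which it was called higher. The share is therefore not free of the filter. No replicate number occurs in both strains, so a strain difference and a difference between the sets of samples cannot be told apart. In B6, 2 were higher (6.87% of all were higher) and 4 were lower (9.34% of all were lower), and the median of the 14 was -0.20, against 0.04 over all. The balance of directions depended on scaling: 2165 of 5108 calls were higher in B6 after quantile normalization, 787 of 3818 with values as deposited and 3187 of 5752 after median centring. With values as deposited 5 members passed, all lower in B6, and the higher calls of Inhbb 1426858_at (0.52, adjusted p = 0.125 in limma) and Bmp7 1418910_at (0.21, adjusted p = 0.479) were lost. Inhba, the beta A subunit, read 7.21 and 6.71 in B6 Sox17+/- and 6.51 and 6.56 in B6 wild type, against 7.42 and 7.25 in ICR Sox17+/- and 7.42 and 7.62 in ICR wild type. All B6 samples were lower, and the difference was -0.68 ± 0.13 log2 units (adjusted p = 0.0155). The call was lost without ICR Sox17+/- replicate 1 or either B6 wild type sample, with values of -0.64, -0.67 and -0.69. Grem1 read 4.90 and 5.03 in B6 Sox17+/- and 4.57 and 4.78 in B6 wild type, against 5.54 and 5.19 and 5.79 and 5.61 in the matching ICR groups. No B6 sample reached an ICR sample, and the difference was -0.71 ± 0.12 (adjusted p = 0.00891).

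Inhbb, Fst, Fstl1 and Bmp7 passed on 1 probe set and not on the other. Inhbb 1426858_at was 0.70 ± 0.10 higher in B6 (adjusted p = 0.00426 in limma), while 1426859_at differed by 0.15 (adjusted p = 0.315). The mean of 1426858_at over all samples, 4.49, passed the minimum of 4.47 only through B6. It averaged 4.98 in B6 and 4.27 in ICR gallbladder, so the ICR side of this call lay under the minimum. Fst 1421365_at differed by -0.96 ± 0.14 (1.95-fold lower, adjusted p = 0.00527), while 1434458_at differed by 0.11 (adjusted p = 0.490). Within each sample, the first Fst probe set minus the second was -2.01 to -1.44 in B6, against -1.03 to -0.41 in ICR, with no overlap. Fstl1 1416221_at differed by -0.39 ± 0.06 (adjusted p = 0.00806), while 1448259_at differed by -0.17 (adjusted p = 0.132). Bmp7 1418910_at was 0.39 ± 0.10 higher (adjusted p = 0.0405), while 1435479_at differed by 0.19, and the first call was lost on leaving out any 1 sample other than ICR Sox17+/- replicate 2. Bmp4 missed the threshold at -0.31 (adjusted p = 0.0626) and passed with values as deposited, at -0.39. Without replicate 1 of ICR wild type its difference was -0.37. The cause of the disagreement between probe sets of a gene was not tested.

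**Figure D5:**
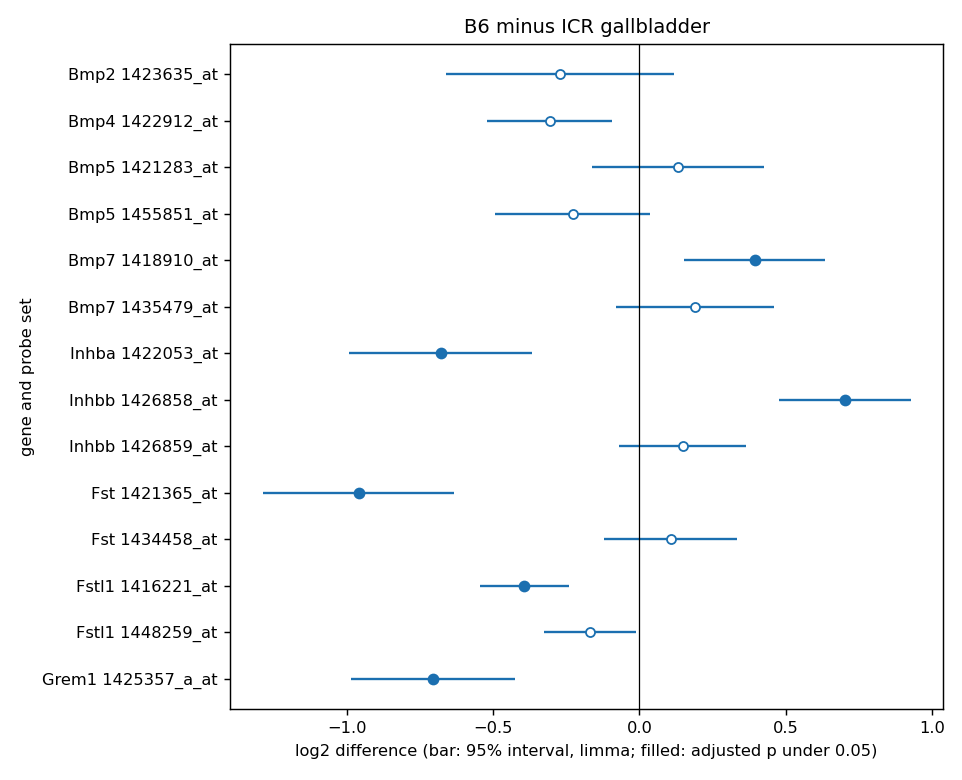
Log2 difference of B6 minus ICR gallbladder, averaged over genotypes (horizontal axis), with 95% intervals for the 14 tested probe sets, filled where the adjusted p was under 0.05. The 2 probe sets of Fst, Inhbb, Fstl1 and Bmp7 fall on different sides of the threshold.

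Transducers carried the most strain calls of the other lists, 7 lower and 1 higher in B6 of 28 probe sets. The lower ones included Smad5 1421047_at (-2.21), 2 probe sets of Smad1 (-1.22 and -0.25), Ski 1429192_at (-1.04), Smurf2 1429045_at (-0.56) and Smad6 (-0.46). Smad4, the shared partner of all receptor Smads, went both ways, with -0.75 on 1422485_at and 0.31 on 1422486_a_at. Smad5 1433641_at and Ski 1426373_at did not pass, at 0.51 and 0.83, and read higher in every B6 sample than in every ICR sample. Much of both values came from ICR wild type replicate 1. It read 8.25 for Smad5, against 9.39 to 9.50 in the other ICR gallbladder samples, and 6.77 for Ski, against 9.16 to 9.41. The median of the 28 was 0.06, with 18 above 0. Other calls were Gdf10 (1.60), Twsg1 1421832_at (1.29), Rgmb 1433586_at (0.96), Chrdl1 1456722_at (0.72), Dand5 (0.56) and Acvr1b 1433725_at (0.27) on the higher side in B6. The remaining tested probe sets of Twsg1, Rgmb, Chrdl1 and Acvr1b did not pass. Those of Rgmb went both ways, with 5.68 to 6.21 in B6 against 5.08 to 5.62 in ICR on 1433587_at, but 4.80 to 5.29 against 5.25 to 5.37 on 1459366_at. The bright Twsg1 1450388_s_at read 10.15 to 10.38 in B6, against 10.27 to 10.50. Tgfb2 1423250_a_at (-1.41), Crim1 1426951_at (-2.18), Id3 (-0.39) and Bmpr1a 1425494_s_at (-0.32) were on the lower side. The other 3 tested probe sets of Tgfb2 did not pass, at 0.05, 0.26 and 0.26, and on 1450923_at every B6 sample was above every ICR sample. Leukocyte markers (9 of 9 genes) averaged 9.73, 9.55, 9.39 and 9.50 in B6, against 8.92, 8.46, 8.96 and 8.42 in ICR gallbladder, and their part was not tested.

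Ordered by group mean, Bmp2 ran from ICR wild type gallbladder (8.77 ± 0.14, SD, n = 2) through B6 wild type (8.29 ± 0.14), ICR Sox17+/- (7.86 ± 0.42) and B6 Sox17+/- (7.80 ± 0.32) to cystic duct (6.77 ± 0.16), and only the Sox17+/- groups overlapped as neighbours. The order of Bmp4 was ICR wild type (9.70 ± 0.18), ICR Sox17+/- (9.37 ± 0.09), B6 wild type (9.30 ± 0.13), B6 Sox17+/- (9.16 ± 0.08) and duct (8.87 ± 0.95). Below the first group of this order all neighbours overlapped after quantile normalization. As deposited, the duct values of Bmp4, 8.33 and 9.03, lay below every gallbladder sample, at 9.09 to 9.91. For Fst 1434458_at it was B6 wild type (9.37 ± 0.15), ICR wild type (9.26 ± 0.10), B6 Sox17+/- (9.05 ± 0.02), ICR Sox17+/- (8.96 ± 0.21) and duct (6.15 ± 1.05), so that the genotypes sorted before the strains. For Fst 1421365_at it was ICR wild type (8.71 ± 0.09), ICR Sox17+/- (8.10 ± 0.04), B6 wild type (7.57 ± 0.13), B6 Sox17+/- (7.33 ± 0.42) and duct (6.93 ± 0.03), so that the strains sorted first. Inhba had its highest mean in duct (7.77 ± 0.36), which overlapped ICR wild type gallbladder (7.52 ± 0.14), followed by ICR Sox17+/- (7.33 ± 0.12), B6 Sox17+/- (6.96 ± 0.36) and B6 wild type (6.53 ± 0.03). The top rank of duct depended on scaling, as Inhba read 8.16 and 7.08 in duct as deposited, against 7.71 and 7.65 in ICR wild type. Its duct difference changed sign in 2 of 20 alternative fits. Of the other tested probe sets only Inhbb 1426859_at had its highest mean in duct, at 6.10 ± 0.98.

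Likeness of pattern was measured as the root mean square difference of centred log2 signals over the 10 samples. Closest to Bmp2 were Coro2a (0.105), Sbspon (0.173) and Rab11fip2 (0.200). Coro2a read 5.80 and 6.75 in ICR Sox17+/- and 6.36 and 5.99 in B6 Sox17+/-, against 5.26 and 5.19 in duct, 7.06 and 7.18 in ICR wild type and 6.89 and 6.50 in B6 wild type. Closest to Fst 1434458_at were Abi3bp (0.109), an extracellular matrix protein gene, Dclk1 (0.156) and Col19a1 (0.194), a collagen gene. Fstl1 1448259_at was most like Prss35 (0.0893). With 10 samples and so many probe sets these are descriptions of shared profiles, in which the duct samples weigh heavily.

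The 4 probe sets under the minimum were not tested. Nog, whose protein blocks BMP2, BMP4 and BMP7, read 4.30, 3.72, 4.04 and 4.09 in Sox17+/- gallbladder, 4.04 and 4.18 in duct, and 3.94, 3.87, 4.07 and 3.97 in wild type gallbladder. Nothing can be said from it about Nog levels beyond a signal near the dim end of the array. Bmp5 1421282_at ran from 3.86 to 4.80, Bmp7 1432410_a_at from 3.88 to 4.81 and Inhba 1458291_at from 4.19 to 4.78 over the 10 samples. The Bmp7 probe set averaged 4.63 in B6 Sox17+/- and 4.72 in B6 wild type, against 4.02 in ICR Sox17+/- and 4.12 in ICR wild type.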

How the data were processed

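The authors deposited log2 signals, 1 per probe set, from an Affymetrix mouse array hybridised with biotinylated cRNA, per the labels' protocols. Their background correction and normalization were not stated there. Stage and genotype tags are swapped in the sample records, so stage, genotype and tissue were read from the sample titles. No other columns per sample were present (0). Sample medians ran from 5.51 to 6.07, so the samples were quantile normalized. The interquartile range was 2.75 in cystic duct replicate 2, against 3.46 to 3.84 in the other samples. Normalization widened the spread of that sample, which raised bright signals such as that of Bmp4 (9.03 to 9.54). Of 45101 probe sets, 64 controls were removed, 34945 had 1 gene, 932 several and 9160 none in the platform annotation, and Entrez identifiers of 34741 were found in the RefSeq table (GRCm38.p6). Probe sets under the 30th percentile of mean signal (4.47) were left out.

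Genotype, strain and interaction contrasts were fitted in limma 3.58.1 (R 4.3.3; eBayes with trend) on the 8 gallbladder samples (4 residual degrees of freedom), since the cystic duct pair was known to vary more. The cystic duct contrast used all 10 (5 degrees). Same-numbered ICR and B6 gallbladder samples deviated together (correlation 0.386 and 0.275), so the replicate number was tried as a block; cystic duct numbers did not (0.065 and 0.050). Named pathway genes are those past the threshold or, where a list had none, those with the lowest p; genes of like pattern are the 3 nearest to a probe set with an SD of 0.5 or more. The members and lists were chosen with earlier results of these data known. Fits were tested on simulated data. Tables and figures used Python 3.11.15, pandas 2.3.3 and matplotlib 3.10.9.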

Additional observations from a re-analysis of the deposited data

Results flagged for a closer look

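Genotype differences of opposite sign in the strains, with no overlap between the Sox17+/- and wild type samples of either strain, were found for 3 of the 14 tested probe sets (21.4%), against 6.38% of all probe sets. The test of the strain difference did not pass for any of them after adjustment over all probe sets. Inhbb 1426858_at read 4.47 and 4.42 in ICR Sox17+/-, against 4.16 and 4.04 in ICR wild type (0.35), and 4.86 and 4.71 in B6 Sox17+/-, against 5.28 and 5.05 in B6 wild type (-0.38). The B6 minus ICR difference of these effects was -0.73 (unadjusted p = 0.00622, adjusted p = 0.808 in limma). This probe set passed the minimum of 4.47 only through its B6 samples, and its ICR values lay near or under that minimum. Grem1 1425357_a_at differed by -0.34 in ICR and 0.29 in B6, and the difference of the effects was 0.63 (unadjusted p = 0.0326, adjusted p = 0.808 in limma). Inhba 1422053_at differed by -0.19 in ICR and 0.43 in B6, and the difference of the effects was 0.62 (unadjusted p = 0.0520, adjusted p = 0.808 in limma). With 1 sample left out, the Inhba difference of effects ran from 0.37 (without B6 Sox17+/- replicate 3) to 0.87, its ICR value from -0.29 to -0.09 (without ICR wild type replicate 1 and 2) and its B6 value from 0.17 to 0.68 (without B6 Sox17+/- replicate 3 and 4). The Grem1 values ran from -0.51 to -0.16 in ICR (without ICR Sox17+/- replicate 1 and 2) and from 0.19 (without B6 wild type replicate 3) to 0.39 in B6, and those of Inhbb stayed between 0.29 and 0.40 in ICR and between -0.50 and -0.27 in B6.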

How the results depend on the processing

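For the 14 tested probe sets, 0 were called in any genotype or interaction fit under any alternative, and the sign changed in 10 of 239 fits over both strains, 2 of 253 in ICR, 5 of 253 in B6 and 16 of 239 of the interaction. The total called over both strains, 36, was 67 with values as deposited, 58 with no filter, 78 with 1 probe set per gene, 70 with gene means and 2 with all 10 samples, and 2 to 1145 on leaving out each sample. In ICR 12 were called, against 40 (as deposited), 5 (median-centred), 7 (50th percentile), 21 (1 probe set per gene), 2 (array weights), 1 (all samples), 2 (compared groups only) and 0 to 1307 without a sample. In B6 3 were called, against 5 (as deposited), 5 (1 probe set per gene), 39 (array weights), 1 (all samples), 27 (compared groups only) and 0 to 11 without a sample. The interaction gave 0, and 0 to 956 without a sample. With the replicate block the totals were 25 over both strains, 1 in ICR, 1 in B6, 0 for the interaction and 1967 for cystic duct with 6 members; the strain contrast could not be fitted with it, because no number occurs in both strains. For strain the members called were 6, against 3 (50th percentile), 3 (1 probe set per gene), 2 (all samples) and 4 to 6 without a sample, and the total of 5108 was 1311 (1 probe set per gene), 1998 (gene means), 1865 (all samples) and 2138 to 6711 without a sample. Fst 1434458_at turned to -0.43 (adjusted p = 0.0264 in limma) as the mean of both Fst probe sets, by construction. For cystic duct the 2759 calls were 1626 with gene means, 0 with array weights, 0 with compared groups only and 711 to 15242 without a sample, with 0, 0 and 3 to 12 members in the last settings; Bmp5 1455851_at turned to 0.64 (adjusted p = 0.0296 in limma) without duct replicate 1 and was -0.98 without duct replicate 2. The cause was not tested. Where a group kept a single sample, that sample is assumed to vary like the others. Against quantile normalization, the median of all probe sets as deposited was -0.19 in ICR, 0.18 for the interaction and -0.24 for cystic duct, and after median centring 0.11 for strain and -0.14 for cystic duct. No detection calls were used, so signals near 4.47, as for Grem1 in duct and Nog, may lie near background.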
